A study of Mus musculus with 2 samples.

Results

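Integrins and the proteins that set their grip were followed as messenger RNA (mRNA) fragments in small RNA libraries of 2 mouse spleen populations. The 10 genes were the alpha chains Itgal, Itgam, Itgax and Itga4, the beta chains Itgb2 and Itgb1, the regulators Rap1gap2 and Cyth3, and the surface glycoproteins Spn and Ceacam1, out of 7001 protein-coding genes with 10 fragments or more. CD11c+Ia low cells (Ia_low) and CD11c+Ia high cells (Ia_high) came from spleens of the strain C57BL/6J, were enriched on CD11c microbeads and then separated by staining for Ia (an MHC class II protein), to a purity given as over 95%. Both are labelled dendritic cells. Both groups share the CD11c selection, and the labels used here name no treatment, genotype, age or number of animals. There was 1 library per group, so no replicate error exists, no test between the groups was run, and every interval below covers counting error only. A fragment is a distinct sequence (tag) of 20 to 30 nt that is identical, in sense, to protein-coding transcripts of exactly 1 protein-coding gene, counted once however often it was read. The 10 genes were picked with their fragment counts in these libraries known, so their ratios are given as a description.

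Integrins are receptors of 1 alpha and 1 beta chain that hold leukocytes to other cells and to matrix. The beta chain of Itgb2 pairs with the alpha chains of Itgal (giving LFA-1), Itgam (giving Mac-1) and Itgax (CD11c), while the chains of Itga4 and Itgb1 form VLA-4. The small GTPase Rap1, when bound to GTP, acts with talin and kindlin to open integrins for their ligands, and Rap1 GTPase-activating proteins switch it off. In the spleen, LFA-1 is widespread on leukocytes, and CD11c is the usual surface mark of dendritic cells.

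The libraries held 13739811 reads in Ia_low and 16388303 reads in Ia_high. Fragments of mRNA numbered 133038 in Ia_low and 323624 in Ia_high, so that 0 fragments allow up to 2.25 in Ia_low and 0.927 in Ia_high per 100000 mRNA fragments. The Ia_low library held longer pieces, with 63.7% of mRNA fragments at 25 to 30 nt against 50.8% in Ia_high, and each fragment had been read a median of 10 times in Ia_low and 5 times in Ia_high. The label was checked against lists of marker genes. All 10 measured conventional dendritic cell genes were at least 2-fold lower in Ia_low. Among them were Wdfy4 (97 fragments in Ia_low and 915 in Ia_high) and Flt3 (5 and 153). Xcr1 (0 and 42) and Cadm1 (0 and 96) were at 0 fragments in Ia_low. Several defining markers of the labelled cell type were thus at or near 0 in Ia_low. Batf3, at 0 in Ia_low and 5 in Ia_high, had too few fragments to be measured. The gate was set on Ia, and not all genes of the MHC class II list encode a chain of that protein. Of the 5 genes of the list, 3 (H2-Ab1, H2-Eb1 and Ciita) were at least 2-fold lower in Ia_low. H2-Aa (161 fragments in Ia_low and 768 in Ia_high) and Cd74 (440 and 1349) were short of 2-fold. Counted by reads in place of fragments, all 5 genes were at least 2-fold lower in Ia_low. The number was 4 when scaled to all tags of the library in place of mRNA fragments. It was 2 when ratios were centred on the median of all genes. Of 10 measured genes of Ly6C-low monocytes other than Itgal and Spn, 9 were at least 2-fold higher in Ia_low, among them Csf1r (274 and 200), while Nr4a1 (431 and 908) was not, and the summed level of the list was 1122 per 100000 in Ia_low and 464 in Ia_high. Summed fragments, not scaled, were 55 in Ia_low and 37 in Ia_high for 11 neutrophil genes, and 8 and 12 for 9 NK cell genes. They were 2 and 151 for 9 T cell genes, and 6 and 39 for 9 B cell genes. They were 8 and 22 for 7 platelet genes, and 44 and 341 for 10 macrophage genes. Per 100000 mRNA fragments, the neutrophil sum was 41.3 in Ia_low and 11.4 in Ia_high. The NK cell sum was 6.01 and 3.71, and the platelet sum 6.01 and 6.80. The T cell, B cell and macrophage sums were lower in Ia_low by this scaling too. Single genes carried several of these sums, with Csf3r at 44 and 22 of the neutrophil fragments, Itgb3 at 8 and 17 of the platelet fragments, and Cd4 at 1 and 114 and Tcf7 at 0 and 32 of the T cell fragments. The defining markers Ly6g (neutrophils), Klrb1c (NK cells), Cd3e (T cells) and Itga2b (platelets) were at 0 in both libraries. Leukocyte integrins are shared by many of these cells, and the part of cell mixture in the values below was not tested. In sorted bulk cells, fewer cells of a type and less RNA per cell cannot be told apart.

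The fragments themselves show what was read from these genes. For each gene the coding tag with the most reads, after dividing by the mRNA reads of its library, is printed 5′ to 3′, and capitals mark bases that lie beyond a splice junction, in the downstream exon.
Itgal: gttaagcagaacaagaaccccgatgttc
Itgam: aggacatgatgaatgaagctgcc
Itgax: ttgagaagaactgtggagctgacca
Itgb2: tgcagcagaaggacggaaggaac
Itga4: agcatttgtagacagacagaacc
Itgb1: attgagatcagGAGAACCACAGAA
Rap1gap2: gttcaggctgataaccccggcacagaga
Cyth3: ttggacattcgtagaagaaaaaaggaact
Spn: tcagcagacggaagtctcgccagggc
Ceacam1: atgaaggatatgggagtctacacact

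On GRCm38, the Itgal tag lies at chr7:127302068-127302095 on the plus strand, in exon 7, and had 58 reads in Ia_low and 19 in Ia_high. The Itgb2 tag, at chr10:77561162-77561184 in exon 14, had 208 reads in Ia_low and 71 in Ia_high, more than any other tag of these genes in the same library. The Itgax tag, at chr7:128141924-128141948 in exon 19, had 27 reads in Ia_low and 62 in Ia_high. These 3 tags appear in both libraries, but 4 of the top tags do not. Over all mRNA fragments, 20.5% of those in Ia_low were also found in Ia_high, so most were not. A count of 0 here holds for the exact tag only. For Itga4 and Ceacam1, tags of other lengths began at the same base in Ia_high. The Itga4 tag (chr2:79279166-79279188, exon 6, 46 reads), the Ceacam1 tag (chr7:25476403-25476428, minus strand, exon 2, 47 reads), the Rap1gap2 tag (chr11:74412311-74412338, minus strand, exon 14, 23 reads) and the Itgam tag (chr7:128117331-128117353, exon 30, 10 reads) were read in Ia_low and had 0 reads in Ia_high. The Spn tag at chr7:127136296-127136321, in exon 2 on the minus strand, had 28 reads in Ia_low and 5 in Ia_high, and the Cyth3 tag at chr5:143684434-143684462, in exon 2, had 13 reads in Ia_low and 10 in Ia_high.

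Some tags run across a splice junction of the annotated transcript, and 5 genes had a coding tag of this kind that was read in both libraries. They are printed to show fragments of spliced mRNA. The most read one of each gene, chosen after the data were seen, is given with the downstream exon in capitals, and the one of Itgb1 is its top tag above.
Itgal: gtgcactgTGAGAATGAGAACTC
Itgb2: acttgcgaccagGACAGGCTG
Itga4: atgttgATGTAGCCGTTGGTG
Rap1gap2: tctaggcaagGATCATCTAAACT

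The Itgal tag joins exons 23 and 24 (chr7:127325094-127325211) and had 57 reads in Ia_low and 12 in Ia_high. The Itgb2 tag joins exons 4 and 5 (chr10:77546182-77547134), with 31 reads in Ia_low and 58 in Ia_high, and the Itgb1 tag joins exons 4 and 5 (chr8:128710465-128713220), with 26 reads in Ia_low and 24 in Ia_high. The Itga4 tag joins exons 12 and 13 (chr2:79288292-79288836), with 17 reads in Ia_low and 9 in Ia_high, and the Rap1gap2 tag joins exons 7 and 8 (chr11:74435792-74436933, minus strand), with 6 reads in each. Junction fragments were most frequent for Itgal, with 111 of 397 fragments in Ia_low and 57 of 230 in Ia_high. For Itgax, whose transcript has 30 exons against 31 in Itgal, they were 6 of 77 in Ia_low and 43 of 320 in Ia_high.

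Of the 10 genes, 7 were at least 2-fold higher in Ia_low with an interval that excluded 1, 0 were at least 2-fold lower, and 3 (Itgax, Itga4 and Itgb1) were neither. Over all 7001 genes, 427 or 6.10% were higher by this rule and 584 or 8.34% were lower, and since the 10 genes were picked on these counts nothing is read from the difference. The split over all genes depended on the scaling, with 541 higher and 465 lower when ratios were centred on the median of all genes and 153 higher and 1917 lower when scaled to all tags. The median log2 ratio of the 10 genes was 1.72, against -0.13 over all genes. Scaled to all tags, 5 of the 10 genes remained at least 2-fold higher, Itgam (1.65-fold) and Itgb2 (1.42-fold) did not, and Itgax passed 2-fold lower, with a ratio of 0.376. Together the 10 genes gave 1331 of 133038 mRNA fragments in Ia_low and 1606 of 323624 in Ia_high.

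Among the alpha chains that pair with Itgb2, Itgal and Itgam were higher in Ia_low and Itgax was lower. Itgal (chr7:127296260-127335138), the alpha chain of LFA-1, had 397 fragments in Ia_low and 230 in Ia_high, that is 298 per 100000 mRNA fragments in Ia_low (counting interval 270 to 329) and 71.1 in Ia_high (62.2 to 80.9), 4.20-fold higher in Ia_low (3.56 to 4.96). Itgam (chr7:128062640-128118491), the alpha chain of the complement receptor Mac-1, had 38 fragments in Ia_low and 36 in Ia_high, 28.6 and 11.1 per 100000, 2.57-fold higher in Ia_low (1.58 to 4.17). Itgax (chr7:128129547-128150657), which encodes CD11c, had 77 fragments in Ia_low and 320 in Ia_high, 57.9 and 98.9 per 100000, with a ratio of 0.585 (0.450 to 0.753). Itgax was thus 1.71-fold lower in Ia_low and short of 2-fold, although both populations had been taken on CD11c beads, and counted by reads in place of fragments it was 2.19-fold lower. Their beta chain Itgb2 (chr10:77530252-77565708) had 163 fragments in Ia_low and 179 in Ia_high, 123 and 55.3 per 100000, 2.22-fold higher in Ia_low (1.78 to 2.75). The counting intervals of the 2 levels do not overlap for any of these 4 genes, Itgax alone among them is lower in Ia_low, and all 4 kept the sign of their log2 ratio in each of the 13 other settings that could change a ratio.

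The count for Itgam is incomplete by the annotation. A gene model named Gm49368 (chr7:128062683-128128160) shares exons with Itgam on the same strand, and 137 tags matched both and no other gene, so they are not fragments of exactly 1 gene. These shared tags numbered 80 in Ia_low and 66 in Ia_high, a ratio of 2.95, while Gm49368 had 1 fragment of its own in Ia_low and 2 in Ia_high. With the shared tags given to Itgam, it had 118 fragments in Ia_low and 102 in Ia_high, 88.6 and 31.5 per 100000, 2.81-fold higher in Ia_low (2.14 to 3.70). Ceacam1 is affected in the same way by its near copy Ceacam2, with 76 tags in common, 57 in Ia_low and 26 in Ia_high, and Ceacam2 had no fragment of its own in either library. For Itgax, 21 tags were shared with Itgad, the neighbouring alpha chain gene (6 in Ia_low and 17 in Ia_high), and adding them left the ratio at 0.599.

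With these shared tags included, the make-up of the alpha chain fragments that pair with Itgb2 was different in the 2 libraries. Itgal took 66.4% of 598 fragments in Ia_low (62.4 to 70.2%, exact binomial interval) and 34.4% of 669 in Ia_high (30.8 to 38.1%). Itgax took 13.9% in Ia_low (11.2 to 16.9%) and 50.4% in Ia_high (46.5 to 54.2%), and Itgam 19.7% in Ia_low (16.6 to 23.2%) and 15.2% in Ia_high (12.6 to 18.2%). The intervals of the 2 libraries do not overlap for Itgal and Itgax, while those for Itgam overlap. The chains were also set beside each other per kilobase of transcript. This corrects for length only, and fragments were not spread evenly along the transcripts. By this measure Itgal was highest in Ia_low, at 57.1 fragments per 100000 against 18.9 for Itgam and 15.4 for Itgax. In Ia_high, Itgax was highest, at 25.7 against 13.6 for Itgal and 6.73 for Itgam. Itgad, not among the 10 genes, had 0 fragments in Ia_low and 22 in Ia_high. Per kilobase of transcript, the 3 alpha chains summed to 91.4 fragments per 100000 in Ia_low and 46.1 in Ia_high, and Itgb2 stood at 41.2 in Ia_low and 18.6 in Ia_high, so alpha over beta was 2.22 in Ia_low and 2.47 in Ia_high.

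**Figure D1:**
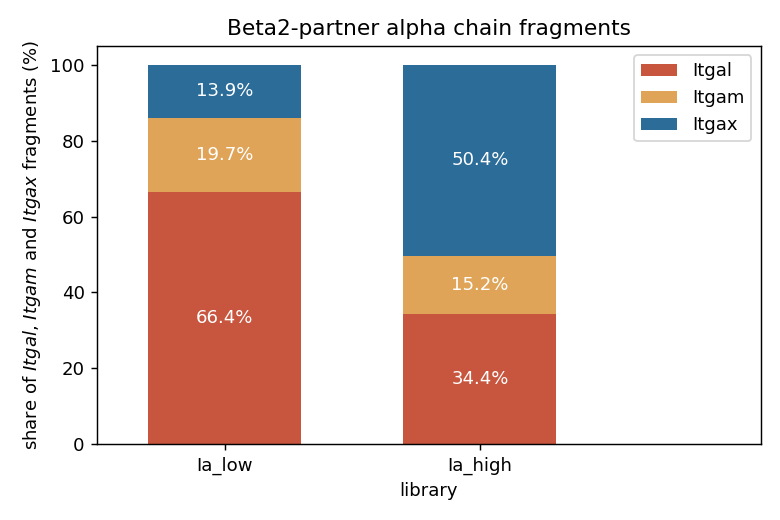
Shares of Itgal, Itgam and Itgax fragments in their sum (%), in the Ia_low and the Ia_high library, with tags shared with Gm49368 and Itgad included. Itgal holds 66.4% in Ia_low and 34.4% in Ia_high, and Itgax 13.9% and 50.4%.

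The chains of VLA-4, which binds VCAM-1 and fibronectin, differed little. Itga4 (chr2:79255426-79333123) had 278 fragments in Ia_low and 572 in Ia_high, 209 and 177 per 100000, a ratio of 1.18 (1.02 to 1.37). Itgb1 (chr8:128685654-128733200), the beta chain shared by many integrins, had 96 in Ia_low and 159 in Ia_high, 72.2 and 49.1 per 100000, a ratio of 1.47 (1.13 to 1.90). Neither reached 2-fold, and no direction is given for either, since their log2 ratios of 0.24 and 0.55 became -0.40 and -0.08 when fragments were scaled to all tags of the library in place of mRNA fragments, a change that lowers every log2 ratio by 0.64.

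By distinct fragments, the regulators and the surface glycoproteins had the highest ratios of the 10 genes. Their intervals all overlap that of Itgal, and differences between genes were not tested. With coding tags alone, Cyth3 had a ratio of 3.80, below Itgal at 4.29. Rap1gap2 (chr11:74383356-74610915, minus strand), a GTPase-activating protein for Rap1, had 87 fragments in Ia_low and 34 in Ia_high, 65.4 and 10.5 per 100000, 6.22-fold higher in Ia_low (4.14 to 9.55). Cyth3 (chr5:143622447-143710250), a cytohesin that loads Arf GTPases with GTP and binds phosphoinositides, had 47 fragments in Ia_low and 20 in Ia_high, 35.3 and 6.18 per 100000, 5.72-fold higher in Ia_low (3.32 to 10.2). Both were far more frequent in Ia_low while contributing few fragments in Ia_high.

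Spn (chr7:127132232-127137823, minus strand) encodes CD43, a long sialic acid-rich mucin that is abundant on leukocytes, and Ceacam1 (chr7:25461707-25477603, minus strand) encodes an immunoglobulin-like adhesion molecule with inhibitory signalling. Spn had 107 fragments in Ia_low and 44 in Ia_high, 80.4 and 13.6 per 100000, 5.92-fold higher in Ia_low (4.13 to 8.61). Ceacam1 had 41 fragments in Ia_low and 12 in Ia_high, 30.8 and 3.71 per 100000, 8.31-fold higher in Ia_low (4.29 to 17.4), the highest ratio of the 10 genes but one that rests on the fewest fragments. With the tags shared with Ceacam2 it had 98 fragments in Ia_low and 38 in Ia_high, 6.27-fold higher (4.27 to 9.37).

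**Figure D2:**
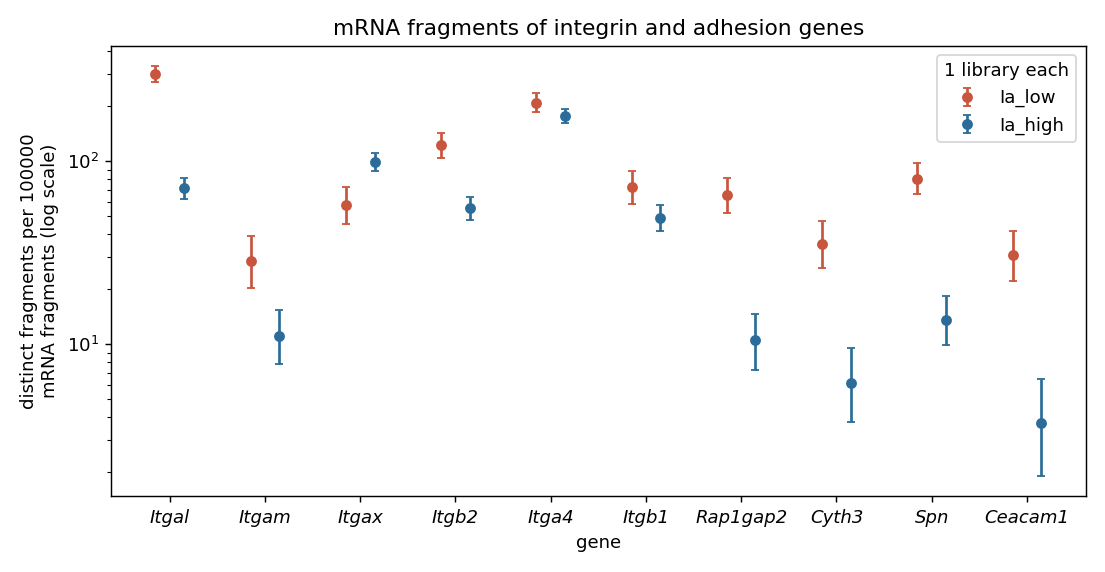
Distinct fragments per 100000 mRNA fragments (log scale) for each of the 10 genes, with Ia_low in red left of Ia_high in blue, 1 library each, and exact Poisson 95% counting intervals. Itgal stands at 298 in Ia_low and 71.1 in Ia_high, and Itgax, at 57.9 in Ia_low and 98.9 in Ia_high, is the only gene lower in Ia_low.

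**Figure D3:**
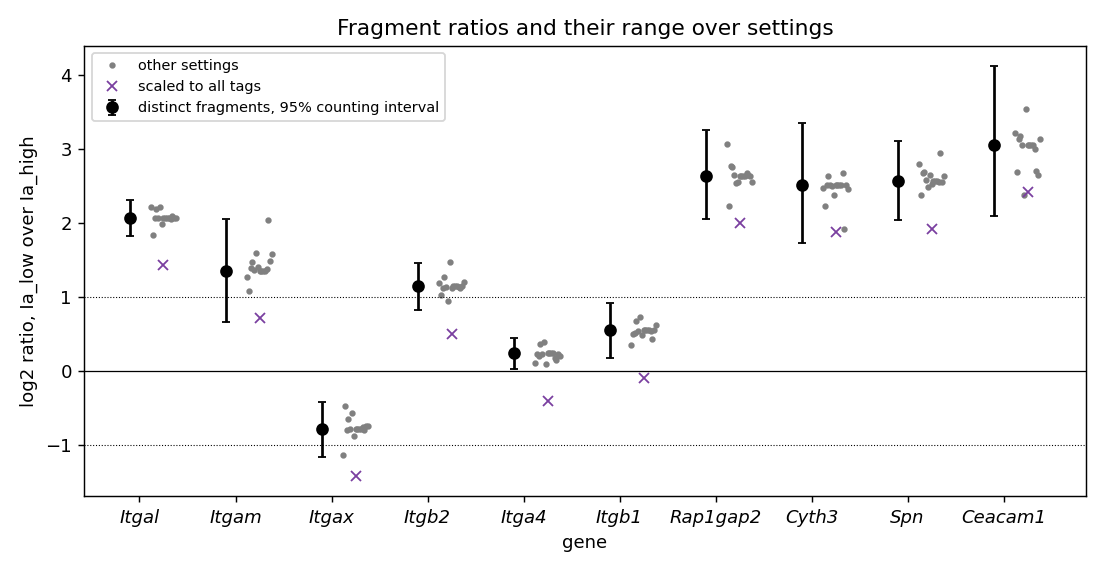
Log2 ratio of Ia_low over Ia_high for the 10 genes by distinct fragments (black, with 95% counting intervals), by 15 other settings (grey, 3 of which change only the genes or the call and leave the ratio as it is) and scaled to all tags (crosses), with dotted lines at 2-fold. Rap1gap2, Cyth3, Spn, Ceacam1 and Itgal lie above 2-fold in every setting, while Itga4 and Itgb1 fall below 0 when scaled to all tags.

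The levels of all 10 genes were ordered per kilobase of transcript, which corrects for length only, with shared tags included for Itgam, Itgax and Ceacam1. In Ia_low the order began with Itgal, at 57.1 fragments per 100000 and kilobase (51.6 to 63.0), and Itgb2, at 41.2 (35.1 to 48.0). Spn (21.5), Itga4 (21.4), Ceacam1 (20.1), Itgam (18.9), Itgb1 (18.9) and Itgax (15.4) followed, each with an interval that overlapped the next, and Rap1gap2 (9.95) and Cyth3 (9.44) came last. In Ia_high the order began with Itgax, at 25.7 (23.1 to 28.6), before Itgb2 (18.6) and Itga4 (18.1), which overlapped. Itgal (13.6) and Itgb1 (12.9) also overlapped, and Itgam stood at 6.73. Spn (3.63), Ceacam1 (3.21), Cyth3 (1.65) and Rap1gap2 (1.60) closed the order, each overlapping the next. Itgal thus had rank 1 in Ia_low and rank 4 in Ia_high, and Itgax rank 8 in Ia_low and rank 1 in Ia_high.

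Fragments lay in many separate stretches along each long transcript. In Ia_low they covered 50.3% of the Itgal transcript of 5222 nt, and in Ia_high 36.5%. For Itgax the covered part was 19.9% in Ia_low and 49.5% in Ia_high, and for Itgb2 it was 42.1% in Ia_low and 45.0% in Ia_high. Covered parts were not scaled to the library, which held 133038 mRNA fragments in Ia_low and 323624 in Ia_high. Coding fragments made up 74.8% of Itgal fragments in Ia_low and 74.3% in Ia_high, and 91.4% of Itgb2 fragments in Ia_low and 93.9% in Ia_high, against 55.8% and 56.7% of all mRNA fragments. The coding region itself is 66.8% of the Itgal and 77.9% of the Itgb2 transcript. Itga4, whose 3′ untranslated region (3′ UTR) takes 6508 of its 9767 nt, had 54.7% of fragments there in Ia_low and 52.3% in Ia_high. Rap1gap2, with 4186 of 6565 nt in the 3′ UTR, had 73.6% there in Ia_low and 73.5% in Ia_high. For these 4 genes the counting intervals of the coding share overlapped between the libraries. Itgam, whose 3′ UTR takes 1114 of 4682 nt, had 28 of 38 fragments there in Ia_low and 29 of 36 in Ia_high, and the tags it shares with Gm49368 are not among them.

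In 5 integrin transcripts the densest stretch of fragments lay at nearly the same place in both libraries. The 100 nt with the most fragment starts in the Itgal transcript ran from position 1106 to 1205 in Ia_low, with 39 fragments, and from 1116 to 1215 in Ia_high, with 26. In Itgax they ran from 2319 to 2418 in Ia_low (15 fragments) and from 2317 to 2416 in Ia_high (45), and in Itgb2 from 2143 to 2242 in Ia_low (27) and from 2152 to 2251 in Ia_high (31). In Itga4 they ran from 2167 to 2266 in Ia_low (25) and from 2170 to 2269 in Ia_high (37), and in Itgb1 from 666 to 765 in both, with 16 fragments in Ia_low and 34 in Ia_high. All 5 of these windows are coding. In the genes with fewer fragments the densest windows lay further apart, in Spn from 493 to 592 in Ia_low and 464 to 563 in Ia_high, in Rap1gap2 from 4127 in Ia_low and 4587 in Ia_high, and in Ceacam1 from 95 in Ia_low and 1260 in Ia_high, the last on 7 and 3 fragments. Fragments of a gene overlap each other, so they are not independent draws of its RNA, and ratios by distinct 5′ starts were closer to 1, with 3.58 for Itgal, 0.722 for Itgax, 2.04 for Itgb2, 4.71 for Rap1gap2, 5.20 for Spn and 6.47 for Ceacam1.

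**Figure D4:**
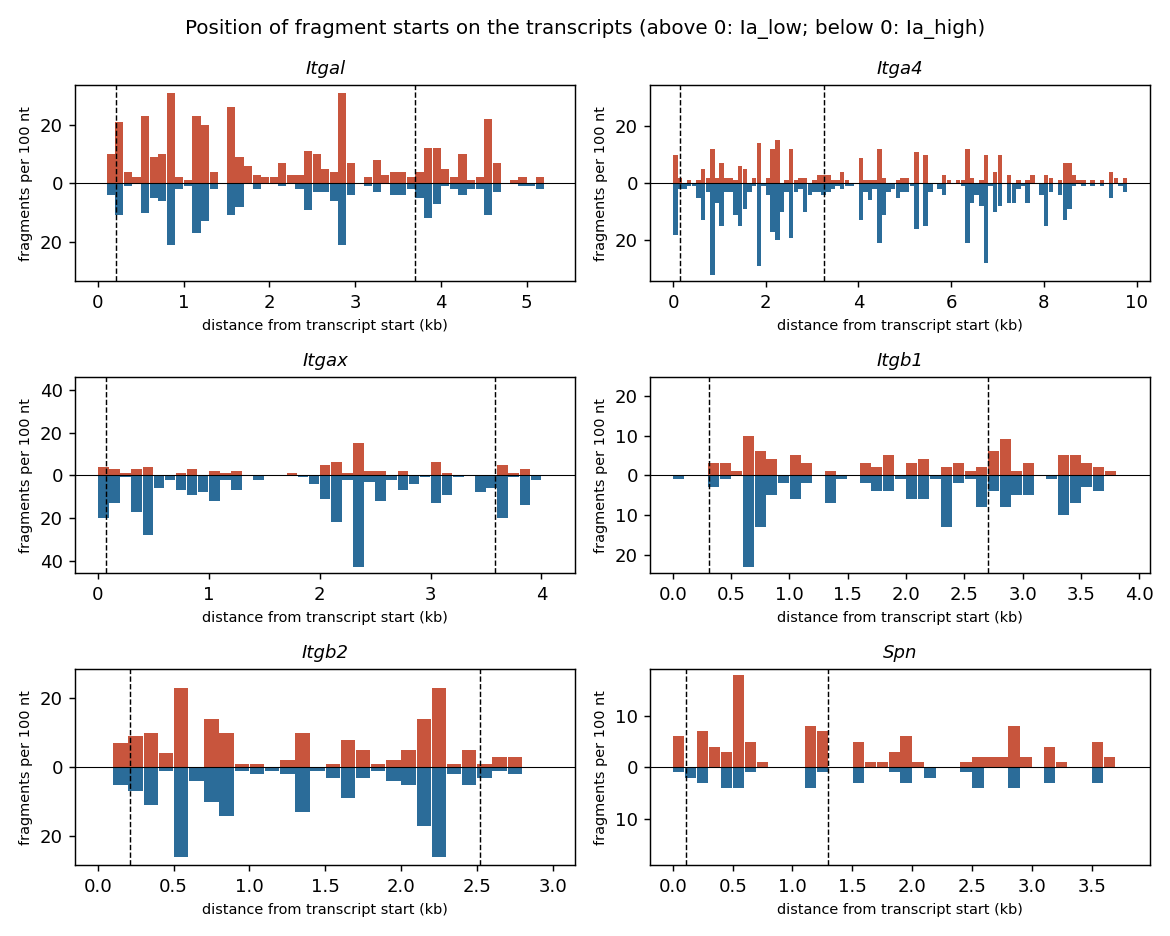
Number of distinct fragments by start position in steps of 100 nt along the transcripts of 6 genes (distance from the transcript start in kb), Ia_low above 0 and Ia_high below 0, not scaled, with dashed lines at the start and end of the coding part. Tall bars of Ia_low and Ia_high face each other at many places, as at the densest stretch of Itgax.

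Length, first base and recurrence of the fragments were set beside those of all mRNA fragments. Of the fragments of the 10 genes, 61.4% had 25 to 30 nt in Ia_low (58.7 to 64.0%) and 49.7% in Ia_high (47.2 to 52.2%), against 63.7% and 50.8% of all mRNA fragments. Pooling the ratios over tag lengths gave 4.21 for Itgal, 0.601 for Itgax, 2.31 for Itgb2 and 8.79 for Ceacam1, each within the interval given above. Within length classes the ratios of some genes lay further apart. With tags of 20 to 24 nt Itgb2 had a ratio of 1.93 (1.40 to 2.65), short of 2-fold, and with tags of 25 to 30 nt it had 2.79 (2.03 to 3.86). Ceacam1 had 5.19 (1.84 to 15.8) with the shorter and 11.6 (4.47 to 38.4) with the longer tags, on few fragments. Fragments began with T in 39.1% of cases in Ia_low and 38.1% in Ia_high, against 36.4% and 36.8% of all mRNA fragments. In both libraries 288 fragments of the 10 genes were found, 21.6% of those in Ia_low and 17.9% of those in Ia_high, against 20.5% and 8.42% of all mRNA fragments. The share in Ia_high depends in part on how a set's fragments divide between the libraries. The 10 genes were picked with these counts known, so nothing is read from that difference.

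Further genes of the pathway were read from lists of integrin chains, Rap1 regulators, adaptors, cytohesins, ligands and surface glycoproteins. Among 20 other integrin chains, 8 reached 10 fragments, of which 1 was at least 2-fold higher in Ia_low and 2 lower (median log2 ratio -0.20). Itgb5, a beta chain that pairs with alpha V, had 39 fragments in Ia_low and 28 in Ia_high, 3.39-fold higher (2.03 to 5.72). Itgae, the alpha chain CD103 of some dendritic cells, had 1 fragment in Ia_low and 43 in Ia_high, 17.7-fold lower (3.01 to 714), and Itgad, at 0 in Ia_low, was at least 3.01-fold lower by a floor of 3 counts in that library. Itgav (ratio 1.77), Itgb7 (1.31) and Itgb3 (1.14) were neither. The chains lower in Ia_low are thus alpha chains with very few fragments there.

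Of 19 genes for Rap1 and its regulators, 15 were measured, with 3 higher in Ia_low and 0 lower (median log2 ratio 0.16). Rap1b, a Rap1 isoform abundant in blood cells, had 157 fragments in Ia_low and 164 in Ia_high, 2.33-fold higher (1.86 to 2.92), and its close relative Rap1a had a ratio of 1.12 (0.755 to 1.64). The Rap1 activator Rasgrp2 was 3.30-fold higher (1.57 to 7.12), with 19 fragments in Ia_low and 14 in Ia_high, and Sipa1, a GTPase-activating protein for Rap1 as Rap1gap2 is, was 2.36-fold higher (1.42 to 3.93), with 33 and 34. Higher genes thus included Rap1b itself, an activator and, with Rap1gap2, a pair of proteins that switch Rap1 off. Rapgef6 (ratio 0.838) and Sipa1l3 (1.16) were neither. Scaled to all tags the median of this list was -0.47, with 1 gene higher (Rasgrp2) and 3 lower (Sipa1l2, Rap1gds1 and Dock4), so the list as a whole is given no direction.

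Of 23 genes for integrin activation and adaptors, 16 were measured, with 4 higher in Ia_low and 0 lower (median log2 ratio 0.39). Stk10, a kinase of leukocytes that acts on the membrane linkers ezrin and moesin, was 3.94-fold higher (3.07 to 5.07), with 170 fragments in Ia_low and 105 in Ia_high. The focal adhesion kinase relative Ptk2b was 3.21-fold higher (2.37 to 4.37), with 103 and 78, and the actin crosslinker Flna, which binds integrin tails, 2.48-fold higher (2.13 to 2.89), with 344 and 337. Rassf5, which encodes the Rap1 effector RAPL, was 2.15-fold higher (1.59 to 2.91), with 85 and 96. Talin, the product of Tln1, links integrin tails to actin and had 249 fragments in Ia_low and 357 in Ia_high, a ratio of 1.70. Fyb (1.42) and Stk4 (1.06) were neither as well. Scaled to all tags the median of this list was -0.25, with 2 genes higher (Stk10 and Ptk2b) and 4 lower (Fermt3, Skap2, Vcl and Vasp), so it too is given no direction.

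All 7 genes of the cytohesin and Arf6 list were measured, with 0 higher and 1 lower in Ia_low, and the relatives of Cyth3 had ratios of 1.75 for Cyth1 (0.900 to 3.34), 1.16 for Cyth2 (0.487 to 2.57) and 0.811 for Cyth4 (0.463 to 1.36). The interval of Cyth1 overlaps that of Cyth3, and the difference between genes was not tested. The Arf6 activator Iqsec1 was 2.14-fold lower, with 10 fragments in Ia_low and 52 in Ia_high, and no longer 2-fold lower when centred on the median of all genes, while Cytip (1.16) and Arf6 (0.811) were neither. Of 4 measured integrin ligands out of 9, Vcam1, the ligand of VLA-4 and a gene of splenic macrophages, was 13.1-fold lower (4.97 to 48.6), with 4 fragments in Ia_low and 127 in Ia_high. Fn1 (ratio 1.86), Icam1 (0.535) and F11r (1.22) were neither, although Fn1 passed 2-fold higher when centred on the median of all genes and Icam1 2-fold lower when scaled to all tags. Icam1, which binds LFA-1, had 11 fragments in Ia_low and 50 in Ia_high.

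Of 14 surface glycoproteins and their partners, 9 were measured, with 2 higher and 2 lower in Ia_low. The membrane linkers moesin and ezrin lay on opposite sides, with Msn 2.45-fold higher in Ia_low (2.04 to 2.95; 237 fragments in Ia_low and 235 in Ia_high) and Ezr 2.49-fold lower (1.48 to 4.44; 17 and 103). The hyaluronan receptor Cd44 was 2.01-fold higher (1.66 to 2.44), with 201 fragments in Ia_low and 243 in Ia_high, and Gcnt1, an enzyme that builds branched sugars on mucins, 3.08-fold lower (1.09 to 12.0), with 4 and 30, though not called when centred. The phosphatases Ptpn6 (ratio 1.70) and Ptpn11 (1.24), which can bind the tail of CEACAM1, and the mucin Selplg (1.56) were neither. Scaled to all tags, the log2 ratios of Msn, Flna, Rap1b, Sipa1, Rassf5 and Cd44 stayed above 0, but none of these 6 genes was 2-fold higher any more, while Itgb5, Rasgrp2, Stk10 and Ptk2b were.

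**Figure D5:**
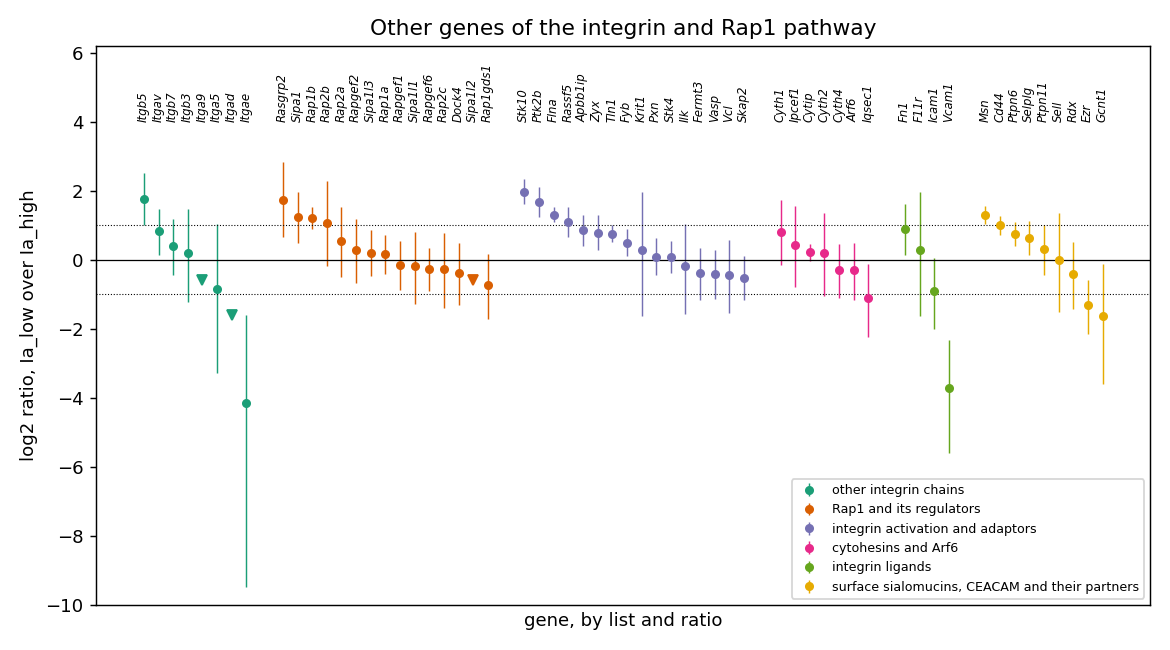
Log2 ratio of Ia_low over Ia_high for the genes of 6 pathway lists with 10 fragments or more (each point a gene, with its 95% counting interval; triangles are genes at 0 fragments in Ia_low, set to 3 counts), with dotted lines at 2-fold. Stk10, at 3.94-fold, stands highest, and Itgae and Vcam1 lie lowest, at 17.7-fold and 13.1-fold lower in Ia_low.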

How the data were processed

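Small RNA libraries of the CD11c+Ia low and CD11c+Ia high populations (1 each) were analysed. Per the labels' protocols, small RNA was gel-purified, ligated to adaptors, amplified for 12 cycles and sequenced on a Solexa instrument. For every distinct sequence the authors deposited a raw read count and a length in nt. Trimming, filters and genome build were not given in the sources used here.

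Tags of 20 to 30 nt were matched, with 0 mismatches and in sense, to protein-coding transcripts of protein-coding genes in GENCODE M21 (GRCm38). Tags of exactly 1 such gene were counted once and scaled to 100000. The transcript of a gene holding most of its tags gave positions and lengths. Ratios (Ia_low over Ia_high) carry exact Clopper-Pearson 95% intervals of counting error. PCR reads without molecular identifiers are not independent molecules. A gene was called at 2-fold or more with an interval excluding 1, at 10 fragments or more over both libraries, and a gene at 0 was bounded with 3 counts. Named genes are the 10 genes, all called genes of the pathway lists with up to 3 uncalled ones of most fragments, and the 2 of most fragments of the main marker lists. Other named genes were added after their values were seen. The 10 genes and the lists were chosen with earlier results of these data known. The ratio rule was tried on simulated data with independent counts, which leaves out the overlap among fragments of a gene. Python 3.11.15, numpy 2.4.6, scipy 1.17.1 and pandas 2.3.3 were used.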

Additional observations from a re-analysis of the deposited data

Results flagged for a closer look

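Tags outside 20 to 30 nt also matched these genes. At 31 to 44 nt the 10 genes had 349 tags (2597 reads) in Ia_low and 34 tags (118 reads) in Ia_high. Both tag counts are above the 3 counts that a count of 0 allows. Over all genes there were 36015 such tags (286309 reads) in Ia_low and 7948 tags (35157 reads) in Ia_high. Per 100000 of these long tags, Itgal had 294 in Ia_low and 101 in Ia_high (106 and 8 tags), 2.92-fold higher in Ia_low (1.43 to 6.95), Itgax 80.5 in Ia_low and 88.1 in Ia_high (ratio 0.914, 0.392 to 2.47), and Itgb2 142 in Ia_low and 62.9 in Ia_high (2.25, 0.904 to 7.23).

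At 18 to 19 nt the 10 genes had 13 tags (168 reads) in Ia_low and 202 tags (1236 reads) in Ia_high. Over all genes there were 1641 such tags (23573 reads) in Ia_low and 40665 tags (291395 reads) in Ia_high. Itgal had 5 of these tags in Ia_low and 29 in Ia_high, a ratio of 4.27 (1.29 to 11.2) per total of such tags. Itgb2 had 1 and 29, a ratio of 0.855 (0.0209 to 5.15), and Itgax had 0 and 45.

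Antisense tags of 20 to 30 nt were nearly absent, with 23 reads of 2 tags in Ia_low (Itga4 and Spn) and 9 reads of 2 tags in Ia_high (Itgax).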

How the results depend on the processing

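Of 130 ratios of the 10 genes over the 13 other settings that could change a ratio, 122 stayed within the counting interval of the reported ratio, 8 moved outside it, and 0 of the called genes changed sign. The ratios that moved were mostly from scaling to all tags, where Itgal, Itgax, Itgb2, Itga4, Itgb1, Rap1gap2 and Spn left their intervals. The other was Itgb2 with tags of 25 to 30 nt. The number of the 10 genes at least 2-fold higher was 7, except for 5 when scaled to all tags and 6 with tags of 20 to 24 nt. The number at least 2-fold lower, 0, became 1 (Itgax) with reads in place of fragments, scaled to all tags, or at a 1.5-fold call. Over all genes, 427 higher and 584 lower became 1556 and 2825 by reads, 153 and 1917 scaled to all tags, 268 and 257 with tags of 20 to 24 nt, and 201 and 269 at a minimum of 50 fragments. With coding tags only, 352 were lower. The coding tags, all transcript types, shared tags and pooling over lengths were settings chosen after the data were seen. Fewer tags or genes enter with short tags, coding tags and the higher minimum; reads give narrower intervals and also bring 10431 genes over the minimum in place of 7001, and which of these moved the counts was not tested. Scaling to all tags lowers every log2 ratio by 0.64, because mRNA fragments were 17.5% of all tags in Ia_low and 27.3% in Ia_high. Counted by reads, mRNA took 16.3% in Ia_low and 16.5% in Ia_high. Why the shares of tags differ was not tested. No paired analysis was possible because there was 1 library per group, and leaving out a replicate was not possible either. The low counts of Cyth3 (20) and Ceacam1 (12) in Ia_high limit their ratios, and their intervals overlap.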
